A study of Homo sapiens with 2 samples.

Results

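The genes described here encode kelch proteins and the cullin scaffolds with which many of them form ubiquitin ligases. They were chosen by symbol from the deposited table, as numbered KLHL and KLHDC genes together with CUL1, CUL2, CUL3, CUL4A, CUL4B, CUL5, RBX1, ELOB and ELOC. The choice gave 56 of 61806 genes, namely 37 KLHL genes, 10 KLHDC genes, 6 cullins and the 3 partner genes. They were measured by sequencing of polyadenylated RNA in SAS cells, an established line from a human tongue squamous cell carcinoma. The cells, wild type in both groups, received an siRNA against COL17A1 or a negative control siRNA by lipid transfection and were harvested after 48 hours. COL17A1 encodes collagen XVII, a transmembrane collagen that anchors basal epithelial cells, and the comparison is between cells with less of its RNA and cells with its usual amount. Each group is 1 library of 1 line, and a single siRNA represents the knockdown. No difference therefore has a replicate check, no p-value was computed, and the spread between cultures is unknown. In bulk RNA, fewer cells of a kind and less RNA per cell cannot be told apart.

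A cullin is an elongated scaffold that holds a RING protein, which recruits the ubiquitin-charged enzyme, at its one end and a substrate receptor at its other. CUL3 binds proteins that join a BTB domain to kelch repeats, such as the KLHL family, in which the repeats fold into a propeller that holds the substrate. CUL2 and CUL5 reach their receptors through elongin B and elongin C, and several KLHDC proteins are receptors of CUL2 that read the last residues of a protein. In keratinocytes this family is known for KLHL24, whose stabilised mutant forms cause loss of keratin 14 and skin blistering.

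The labels were first checked on the targeted gene. COL17A1 had 411 counts in the COL17A1 siRNA library, against 3116 in the control library, and was 10.5-fold lower after scaling. The libraries held 21601195 counts with COL17A1 siRNA and 15980152 with control siRNA. The 8 squamous epithelial markers were all present, between 13.2 and 1010 CPM, counts scaled to the library size, with COL17A1 siRNA and between 13.8 and 666 CPM with control siRNA. Fibroblast, endothelial and leukocyte markers each summed to at most 2.24 CPM with COL17A1 siRNA and 1.46 CPM with control siRNA, and PTPRC, the pan-leukocyte marker, was at 0 in both.

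Of the 56 genes 39 had a mean of at least 1 CPM and are given below as the tested genes. The ratio throughout is COL17A1 siRNA over control siRNA on scaled counts, on the log2 scale, and the interval in brackets is an exact 95% interval of counting error only. A gene is called higher or lower when it was at least 1.5-fold apart with an interval that excluded equality. By that rule 3 of the 39 were higher, KLHDC8B, KLHDC3 and ELOB, and 2 were lower, KLHL11 and KLHL8. These are 7.69% and 5.13% of the tested genes described here, beside 12.2% higher and 11.7% lower among all 13375 tested genes. Their median log2 ratio was 0.03, and that of all tested genes was also 0.03. The 56 genes together took 47850 counts with COL17A1 siRNA and 36022 with control siRNA, a log2 ratio of the sums of -0.06 [-0.08 to -0.04]. The sum thus differed little between the libraries, while classes and single genes within it differed in both directions.

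By counting error alone 10 of the 39 had an interval wholly above equality and 15 one wholly below. Among all tested genes these shares were 33.1% and 32.4%. Values after an adjustment are also given, in which each log2 ratio was taken relative to that of tested genes of like exonic length, GC content and abundance.

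**Figure D1:**
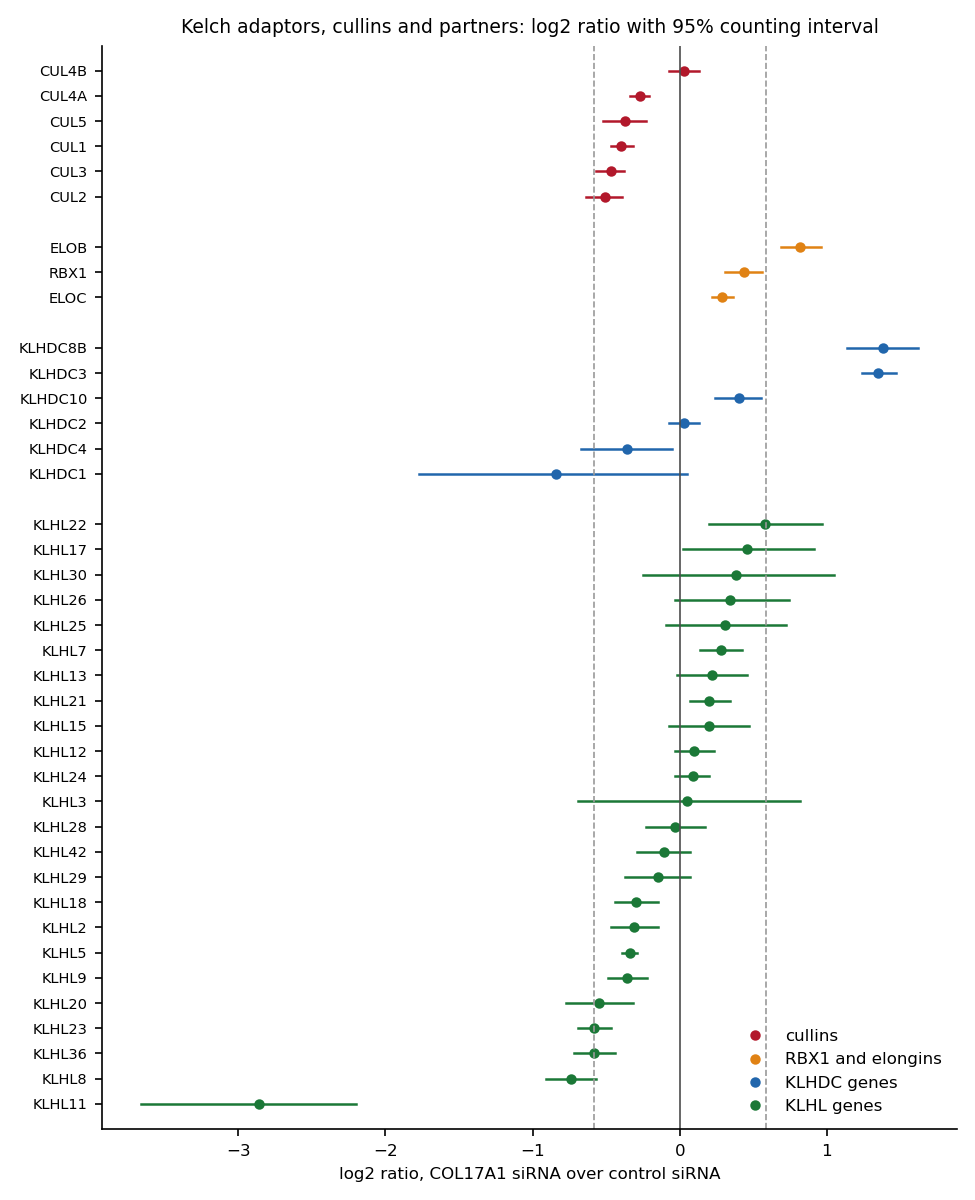
Log2 ratio of COL17A1 siRNA over control siRNA for the 39 tested genes, by class and in falling order, with points for the ratio and bars for its exact 95% interval of counting error. The dashed lines mark 1.5-fold. KLHDC8B, KLHDC3 and ELOB lie beyond them on the right at 1.38, 1.35 and 0.82, KLHL11 and KLHL8 on the left at -2.86 and -0.74, and KLHDC1, also on the left at -0.84, has an interval that reaches equality.

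The annotated promoters of 4 of the 5 called genes are shown, since these genes carry the differences that pass the rule. Each run is RefSeq sequence of build GRCh38.p14, 5′ to 3′ on the strand of the gene, from 250 bases before the annotated start to 50 bases after it, and KLHL8, with several annotated starts, is left out. KLHDC8B lies at chr3:49171348-49171647 on the plus strand, KLHDC3 at chr6:43013999-43014298 on the plus strand, ELOB at chr16:2777231-2777530 on the minus strand and KLHL11 at chr17:41865374-41865673 on the minus strand. Capitals mark matches, on either strand, to the TATA box as TATAAA, the CCAAT box as its name, the GC box as GGGCGG, an ETS core as CCGGAAG, the cAMP response element as TGACGTCA and a core of the NRF1 site as GCGCATGC.
KLHDC8B: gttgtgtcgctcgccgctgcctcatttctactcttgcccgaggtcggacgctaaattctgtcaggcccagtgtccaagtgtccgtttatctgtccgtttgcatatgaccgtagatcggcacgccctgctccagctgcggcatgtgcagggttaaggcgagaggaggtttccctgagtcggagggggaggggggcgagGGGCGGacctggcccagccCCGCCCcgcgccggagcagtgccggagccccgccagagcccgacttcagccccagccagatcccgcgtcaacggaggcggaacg
KLHDC3: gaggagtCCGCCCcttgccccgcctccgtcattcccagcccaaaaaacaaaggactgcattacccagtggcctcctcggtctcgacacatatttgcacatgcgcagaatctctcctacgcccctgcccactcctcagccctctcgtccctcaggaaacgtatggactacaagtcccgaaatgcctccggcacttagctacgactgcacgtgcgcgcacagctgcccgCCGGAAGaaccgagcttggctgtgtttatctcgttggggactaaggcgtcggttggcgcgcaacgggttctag
ELOB: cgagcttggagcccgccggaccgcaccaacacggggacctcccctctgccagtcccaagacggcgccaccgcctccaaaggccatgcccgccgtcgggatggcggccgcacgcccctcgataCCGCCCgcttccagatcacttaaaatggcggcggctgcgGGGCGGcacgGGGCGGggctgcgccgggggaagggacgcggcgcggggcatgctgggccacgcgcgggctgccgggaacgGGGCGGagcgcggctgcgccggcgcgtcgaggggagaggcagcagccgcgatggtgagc
KLHL11: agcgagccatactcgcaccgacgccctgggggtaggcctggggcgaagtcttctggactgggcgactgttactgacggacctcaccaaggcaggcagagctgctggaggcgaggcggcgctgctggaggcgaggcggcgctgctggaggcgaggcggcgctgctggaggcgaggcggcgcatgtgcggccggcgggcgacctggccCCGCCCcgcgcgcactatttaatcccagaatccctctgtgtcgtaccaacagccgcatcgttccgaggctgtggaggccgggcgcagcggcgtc

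The GC box was found in all 4 windows, with 4 matches in ELOB, 2 in KLHDC8B and 1 each in KLHDC3 and KLHL11. It stood in 45.0% of 35116 annotated promoter windows and in 51.4% of the 74 windows of the 49 genes of this family that have any. KLHDC3 alone of the 4 held CCGGAAG, which 10.3% of all windows and 13.5% of the family windows hold. No match was found in the 4 for the TATA box, held by 11.5% of all windows, the CCAAT box, held by 34.6%, the cAMP response element, held by 1.85%, or the NRF1 core, held by 3.05%. A match describes letters and is not a binding site or a cause. The KLHL11 window holds a tandem repeat of 82 bases, 4 copies of gctgctggaggcgaggcggc and the start of another, at positions -152 to -71 from the annotated start. The GC content of the 4 windows was 66.0% for KLHDC8B, 59.7% for KLHDC3, 76.3% for ELOB and 70.7% for KLHL11, against medians of 62.3% over the family windows and 58.7% over all windows.

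Among the scaffolds, CUL1, CUL2, CUL3, CUL4A and CUL5 had intervals below equality, that of CUL4B covered it, and none of the 6 reached 1.5-fold. CUL3, the scaffold of the BTB and kelch adaptors, had 1794 counts with COL17A1 siRNA and 1794 with control siRNA, which in the deeper COL17A1 siRNA library is a log2 ratio of -0.47 [-0.57 to -0.38]. CUL2, the scaffold used by KLHDC2, KLHDC3 and KLHDC10, had 1000 counts with COL17A1 siRNA and 1028 with control siRNA, a log2 ratio of -0.51 [-0.64 to -0.39]. CUL1, the scaffold of the F-box receptors, had 2964 counts with COL17A1 siRNA and 2814 with control siRNA, at -0.40 [-0.47 to -0.32]. CUL5, which works with SOCS-box receptors, had 815 counts with COL17A1 siRNA and 761 with control siRNA, at -0.37 [-0.52 to -0.23].

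The paralogs CUL4A and CUL4B, which share the DDB1 adaptor, did not move alike. CUL4A had 4499 counts with COL17A1 siRNA and 3915 with control siRNA, a log2 ratio of -0.27 [-0.34 to -0.21]. CUL4B had 1968 counts with COL17A1 siRNA and 1390 with control siRNA, at 0.03 [-0.07 to 0.13]. The difference of their log2 ratios, CUL4B minus CUL4A, was 0.30 [0.18 to 0.42] with counting error alone. The 6 cullins summed to 13040 counts with COL17A1 siRNA and 11702 with control siRNA, a log2 ratio of -0.32 [-0.35 to -0.28], and their median was -0.39. An interval wholly below equality, held by 5 of the 6, was also held by 32.4% of all tested genes, and one wholly above equality, held by none of them, by 33.1%.

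As a class the cullins are long and poor in GC, properties that go with lower ratios over all tested genes. Among the 6 cullins themselves CUL4B, the longest by deposited exonic size at 33815 bases, was at 0.03. CUL1, the shortest at 4152 bases, was at -0.40. By longest coding transcript CUL4B, at 4902 bases, is shorter than CUL3, at 6741 bases. The part of length in these values was not tested. Over all 13375 tested genes the log2 ratio fell with log2 exonic size, at Pearson r = -0.33 across genes, which are not independent replicates, and the cullins have a median exonic size of 9659 bases beside 5182 over all tested genes. Their median transcript GC content was 38.9%, against 47.9% over all tested genes. After the adjustment for these properties and abundance the cullin median was -0.09, with CUL1 at -0.31, CUL2 at -0.10, CUL3 at -0.08, CUL4A at -0.02 and CUL5 at -0.10. CUL4B came to 0.68 in that adjustment, which took its deposited exonic size of 33815 bases, and to 0.32 with its longest annotated transcript in place of that size. With that transcript length CUL2, whose deposited exonic size is 14494 bases, came to -0.28. CUL1 was then at -0.30, CUL3 at -0.09, CUL4A at 0.03 and CUL5 at -0.01, and the cullin median was -0.05.

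The other 3 core subunits had intervals above equality, and 1 of them, ELOB, was called higher. RBX1, the RING protein of the scaffolds other than CUL5, which works mainly with its relative RNF7, had 1465 counts with COL17A1 siRNA and 780 with control siRNA, a log2 ratio of 0.44 [0.31 to 0.56]. ELOB, elongin B, a ubiquitin-like adaptor subunit, had 1521 counts with COL17A1 siRNA and 620 with control siRNA, and was 1.77-fold higher at 0.82 [0.69 to 0.96]. ELOC, elongin C, which binds elongin B and the cullin, had 4865 counts with COL17A1 siRNA and 2863 with control siRNA, at 0.29 [0.22 to 0.36].

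ELOB and ELOC act as a pair, and the log2 ratio of ELOB exceeded that of ELOC by 0.53 [0.38 to 0.68] with counting error alone. ELOC has 34 annotated pseudogene copies in the table, of which 3 had counts. These copies held 91 counts with COL17A1 siRNA and 61 with control siRNA, few beside those of ELOC, whose own count remains uncertain. In the GENCODE annotation 16.8% of the 1128 exonic bases of ELOB lie in exons of SRRM2 on the opposite strand. The deposited exonic size of ELOB is larger, at 5714 bases, and the overlap over that larger region was not measured. SRRM2, a spliceosome-associated protein gene, had 2547 counts with COL17A1 siRNA and 3858 with control siRNA, the direction opposite to that of ELOB. After the adjustment with exonic size ELOB stood at 0.63 and was still called higher. With the longest transcript as length in the adjustment ELOB came to 0.32, below 1.5-fold.

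The KLHDC genes, which carry kelch repeats without a BTB domain, had 6 tested genes, of which 2 were called higher and none lower, beside 12.2% and 11.7% of all tested genes. KLHDC3, a receptor of CUL2 for C-terminal degrons, had 2980 counts with COL17A1 siRNA and 839 with control siRNA, which is 68.3 FPKM with COL17A1 siRNA and 26.0 FPKM with control siRNA. FPKM is the deposited level per kilobase of exon, scaled to library size. It was 2.56-fold higher, a log2 ratio of 1.35 [1.24 to 1.47]. KLHDC2, a CUL2 receptor that also reads C-terminal degrons, had 2059 counts with COL17A1 siRNA and 1450 with control siRNA, at 0.03 [-0.07 to 0.13]. The log2 ratio of KLHDC3 exceeded that of KLHDC2 by 1.32 [1.18 to 1.47] with counting error alone.

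KLHDC8B, a midbody protein with a role in cytokinesis, had 669 counts with COL17A1 siRNA and 185 with control siRNA, which is 14.3 FPKM with COL17A1 siRNA and 5.33 FPKM with control siRNA. It was 2.60-fold higher, at 1.38 [1.14 to 1.62]. KLHDC10, another CUL2 receptor, had 958 counts with COL17A1 siRNA and 524 with control siRNA, at 0.40 [0.24 to 0.55]. KLHDC4 had 181 counts with COL17A1 siRNA and 167 with control siRNA, at -0.36 [-0.67 to -0.05]. For KLHDC1, with 20 counts with COL17A1 siRNA and 26 with control siRNA, no difference was detectable at this depth.

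KLHDC3 held 64.7% of the summed FPKM of the 10 KLHDC genes with COL17A1 siRNA and 49.6% with control siRNA. The summed level of that class was 106 FPKM with COL17A1 siRNA and 52.4 FPKM with control siRNA. KLHDC3 and KLHDC8B have exonic sizes of 2019 and 2171 bases and transcript GC contents of 56.7% and 59.9%, shorter and richer than the family medians of 6771 bases and 43.5%. After the adjustment for length, GC content and abundance they stood at 1.07 and 1.03, still above 2-fold. MEA1, which shares 8.77% of the exonic bases of KLHDC3 on the opposite strand, had 2981 counts with COL17A1 siRNA and 1305 with control siRNA, a log2 ratio of 0.72. NEMF, which shares 44.0% of those of KLHDC2 on the opposite strand, had 419 counts with COL17A1 siRNA and 679 with control siRNA. The strand setting of the counting is not given in the sources used here, and the part of these neighbours in the counts was not tested.

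**Figure D2:**
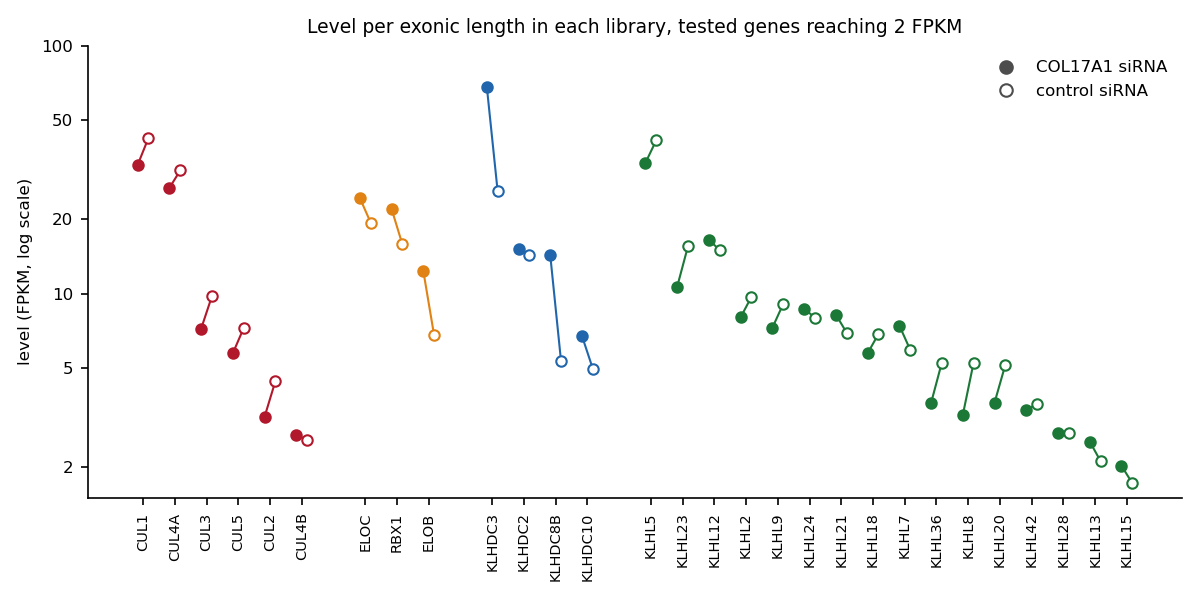
Level in FPKM on a log scale of the tested genes that reached 2 FPKM in either library, by class, with filled points for COL17A1 siRNA and open points for control siRNA. KLHDC3 is the highest of the plotted genes with COL17A1 siRNA, at 68.3 FPKM, but not with control siRNA, at 26.0 FPKM, while the 5 cullins other than CUL4B lie slightly lower with COL17A1 siRNA.

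Of the 37 KLHL genes 24 were tested, with a median log2 ratio of 0.01, 12 above 0 and 12 below. KLHL11, known as a target of autoantibodies in a paraneoplastic encephalitis, had 20 counts with COL17A1 siRNA and 107 with control siRNA. It was 7.28-fold lower, at -2.86 [-3.66 to -2.20], and -2.76 after the adjustment. Its neighbour KLHL10, whose gene ends 133 bases from the end of KLHL11 on the other strand of chromosome 17, had 1 count with COL17A1 siRNA and 0 with control siRNA. KLHL8 had 515 counts with COL17A1 siRNA and 618 with control siRNA and was 1.67-fold lower, at -0.74 [-0.91 to -0.57], and -0.46 after the adjustment, under 1.5-fold.

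The KLHL gene with the highest FPKM in both libraries was KLHL5, which took 24.7% of the summed KLHL FPKM with COL17A1 siRNA and 27.3% with control siRNA. Per kilobase of the longest coding transcript its share of the class was 39.5% with COL17A1 siRNA and 41.6% with control siRNA. KLHL5 had 6665 counts with COL17A1 siRNA and 6077 with control siRNA, at -0.34 [-0.39 to -0.29]. KLHL23 had 1270 counts with COL17A1 siRNA and 1366 with control siRNA, at -0.58 [-0.69 to -0.47], and shares 7.79% of its exonic bases with PHOSPHO2 on its own strand, so its count is uncertain. KLHL36 had 783 counts with COL17A1 siRNA and 843 with control siRNA, at -0.58 [-0.72 to -0.44]. These values show KLHL23 and KLHL36 just under the 1.5-fold rule. KLHL20, which targets DAPK1, PML and autophagy kinases, had 333 counts with COL17A1 siRNA and 350 with control siRNA, at -0.55 [-0.77 to -0.32]. On the other side KLHL22, an adaptor of the mTORC1 regulator DEPDC5, came nearest to the rule, with 179 counts with COL17A1 siRNA and 86 with control siRNA, at 0.58 [0.20 to 0.97].

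KLHL9 and KLHL13, partner adaptors that remove Aurora B from mitotic chromosomes, differed from each other. KLHL9 had 903 counts with COL17A1 siRNA and 832 with control siRNA, at -0.36 [-0.49 to -0.22]. KLHL13 had 379 counts with COL17A1 siRNA and 234 with control siRNA, at 0.22 [-0.02 to 0.46]. KLHL13 minus KLHL9 was 0.58 [0.31 to 0.85] with counting error alone, and KLHL21, a further Aurora B adaptor, was at 0.20 [0.07 to 0.34]. KLHL2, which with KLHL3 targets WNK kinases, had 681 counts with COL17A1 siRNA and 609 with control siRNA, at -0.31 [-0.47 to -0.15]. KLHL3 had 39 counts with COL17A1 siRNA and 27 with control siRNA, at 0.05 [-0.69 to 0.82], and the interval of its difference from KLHL2, -0.36 to 1.08, covers 0.

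The intervals of the adaptors with keratinocyte, vesicle and translation substrates covered equality. KLHL24, the adaptor of keratin 14, had 1625 counts with COL17A1 siRNA and 1103 with control siRNA, at 0.09 [-0.03 to 0.20], and at 0.42 after the adjustment. KLHL12, an adaptor of dishevelled proteins and of the vesicle coat protein SEC31A, had 1248 counts with COL17A1 siRNA and 838 with control siRNA, at 0.10 [-0.03 to 0.23]. KLHL25, an adaptor of the translation repressor EIF4EBP1, had 143 counts with COL17A1 siRNA and 83 with control siRNA, at 0.31 [-0.09 to 0.72]. KLHL15, an adaptor of the phosphatase subunit PPP2R5B, had 296 counts with COL17A1 siRNA and 186 with control siRNA, at 0.20 [-0.07 to 0.47], and at 0.46 after the adjustment.

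The other tested KLHL genes were all under 1.5-fold. KLHL18, a regulator of Aurora A, was at -0.30, KLHL29 at -0.15, KLHL42, an adaptor of the microtubule-severing enzyme katanin, at -0.11 and KLHL28 at -0.03. KLHL7, mutated in a form of retinitis pigmentosa, was at 0.28 and KLHL26 at 0.34. KLHL30, at 0.38 on 60 counts with COL17A1 siRNA and 33 with control siRNA, and KLHL17, known in neurons as actinfilin, at 0.46, had wide intervals, from -0.25 to 1.05 and from 0.02 to 0.91.

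The 17 genes under the filter had at most 17 counts over both libraries. In 8 of them, KLHL1, KLHL6, KLHL14, KLHL32, KLHL34, KLHL40, KLHL41 and KLHDC7B, both libraries were at 0, which allows up to 0.137 CPM with COL17A1 siRNA and 0.190 CPM with control siRNA. They include adaptors known from skeletal muscle, KLHL40 and KLHL41, from neurons, KLHL1, and from B cells, KLHL6. KLHL4, a paralog of KLHL5, had 4 counts with COL17A1 siRNA and 13 with control siRNA, and KLHL31 had 12 with COL17A1 siRNA and 4 with control siRNA. KLHDC8A had 4 counts with COL17A1 siRNA and 0 with control siRNA, KLHDC9, KLHL33, KLHL35 and KLHDC7A had between 2 and 6 counts with COL17A1 siRNA and between 1 and 6 with control siRNA. KLHL38 had 1 count with COL17A1 siRNA and 0 with control siRNA. No difference was detectable for these genes at this depth, KLHL4 excepted, whose interval of -4.25 to -0.48 left out equality on 17 counts.

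Levels of different genes were compared per length. By FPKM the cullins ran, with COL17A1 siRNA, CUL1 at 33.1, CUL4A at 26.7, CUL3 at 7.22, CUL5 at 5.75, CUL2 at 3.19 and CUL4B at 2.69. With control siRNA the order was the same, at 42.4, 31.4, 9.76, 7.26, 4.44 and 2.57 FPKM. The place of CUL4B rests on its deposited exonic size. Per kilobase of the longest coding transcript it stood next after CUL1 and CUL4A, at 18.6 with COL17A1 siRNA and 17.7 with control siRNA, and CUL5 ranked last, at 5.94 with COL17A1 siRNA and 7.50 with control siRNA. On that scale ELOB, ELOC and RBX1 were above every cullin with COL17A1 siRNA, at 70.6, 81.0 and 57.1, while with control siRNA ELOB, at 38.9, and RBX1, at 41.1, lay below CUL1, at 57.5, and CUL4A, at 43.2.

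**Figure D3:**
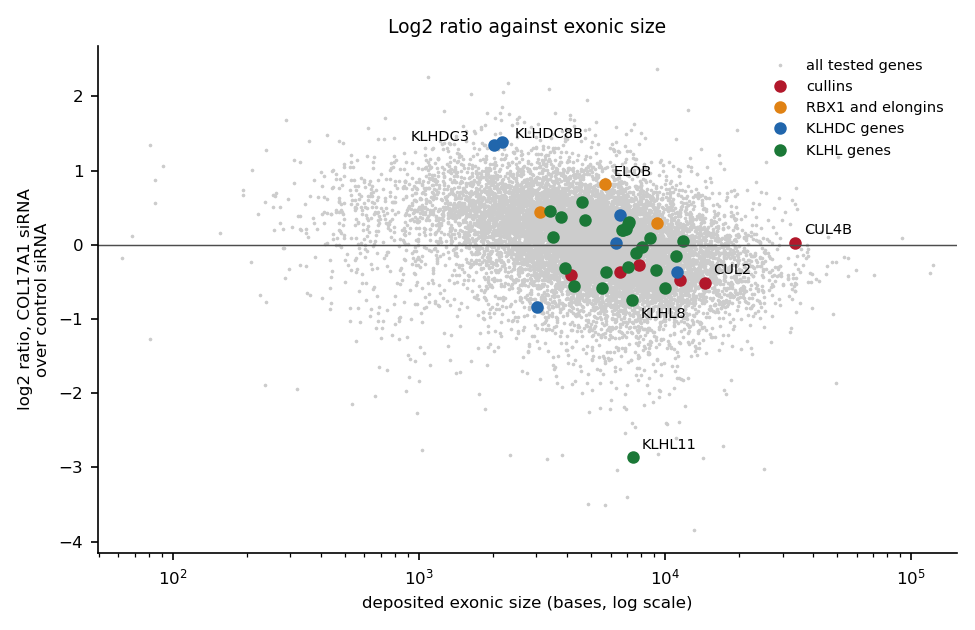
Log2 ratio of COL17A1 siRNA over control siRNA against the deposited exonic size on a log scale, with all 13375 tested genes in grey and the classes in colour. The grey cloud descends to the right, KLHDC3 and KLHDC8B lie near its upper edge at 2019 and 2171 bases, and KLHL11 lies below its dense part at -2.86.

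Across the 39 tested genes the log2 ratio had a Pearson r of -0.33 with log2 exonic size and 0.40 with GC content, and over all tested genes these were -0.33 and 0.35. The points share both libraries and the correlations are given as descriptions. The 3 higher genes had a median exonic size of 2171 bases and the 2 lower ones of 7378 bases. Of 2 words of 7 bases that earlier work found in 3' untranslated regions to go with lower or higher ratios in these same data, TCGGAGA stood in none of the tested family genes, against 2.19% of all tested genes with such a region. The word GCTAATG stood in 3 of the 39, ELOC, CUL2 and KLHL29, or 7.69%, against 8.50% of all, and in none of the 5 called genes.

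Other parts of the cullin machinery showed different mixtures, with the share of all tested genes, 12.2% higher and 11.7% lower, as the background. For counts after the adjustment the background is smaller. Of all 13375 tested genes 1207 were then called higher and 1107 lower, in place of 1636 and 1565. Of 11 genes, namely NEDD8, the ubiquitin-like activator of cullins, and those that attach or remove it, 1 was higher and 2 were lower. Their median was -0.18, and after the adjustment 1 was higher and 1 lower. UBE2F, the NEDD8 enzyme that serves CUL5, had 764 counts with COL17A1 siRNA and 892 with control siRNA, at -0.70. DCUN1D4, a cofactor of NEDD8 transfer, was at -0.81, and at -0.50 after the adjustment, under 1.5-fold. Its relative DCUN1D3, at 0.59, is of uncertain count because ERI2 overlaps it on the same strand. Of 12 tested genes, namely the exchange factor CAND1, the cullin inhibitor GLMN and 10 subunits of the COP9 signalosome, which removes NEDD8, none was higher or lower and the median was 0.26. Of 6 cullin relatives and partners outside the family rule, 1 was higher, ANAPC11, the RING subunit of the anaphase-promoting complex, at 0.90.

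Receptors outside the chosen family were counted in 5 lists, with more genes called lower than higher in 4 of them before the adjustment and in 3 after it. Of 12 tested BTB and kelch adaptors that carry other names 1 was higher, 3 were lower and the median was -0.28. KBTBD4 had 63 counts with COL17A1 siRNA and 114 with control siRNA, at -1.32, IPP was at -0.74 and IVNS1ABP at -0.68. KBTBD3 had 74 counts with COL17A1 siRNA and 26 with control siRNA, at 1.02. The count of IPP is uncertain because another gene with counts overlaps it on the same strand. Genes with more counts overlap KBTBD4 (PTPMT1 and NDUFS3) and KBTBD3 (AASDHPPT) on the opposite strand. Called after the adjustment were 1 higher and 2 lower of these 12, with IVNS1ABP at -0.42, under 1.5-fold. Of 25 other BTB adaptors of CUL3 4 were called higher, 2 lower, and the median was 0.17, ABTB1 being at 0.91, BTBD2 at 0.70, KCTD9 at -0.70 and RCBTB1 at -0.64. After the adjustment 1 of these 25 was called higher, ABTB1 at 0.75, and none lower. Of SKP1 and 29 F-box receptors of CUL1 3 were higher and 5 lower, around a median of -0.11. FBXO11, a receptor of BCL6, had 566 counts with COL17A1 siRNA and 1150 with control siRNA, at -1.50, FBXO21 was at -1.43, FBXO2, which binds glycoproteins, at 1.14 and KDM2B at 0.69. After the adjustment the balance of these 30 turned, with 5 called higher, 3 lower and a median of 0.05.

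Of DDB1 and 24 tested receptors of CUL4A and CUL4B none was higher, 7 were lower and the median was -0.33. DCAF17 had 754 counts with COL17A1 siRNA and 1202 with control siRNA, at -1.15, BRWD1 was at -0.83, DCAF16 at -0.73 and DCAF1 at -0.62. After the adjustment 3 of these 25 were called lower and the median was -0.12. Of 26 tested receptors of CUL2 and CUL5 and ELOA 1 was higher, 6 were lower and the median was -0.17. After the adjustment none was called higher and 3 lower. FEM1B, a CUL2 receptor that reads C-terminal degrons as KLHDC3 does, had 1264 counts with COL17A1 siRNA and 2155 with control siRNA, at -1.24, and -0.98 after the adjustment. Its relative FEM1C was at -0.83, ZYG11B, which reads N-terminal glycine, at -0.84, and SOCS3 at 0.66.

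**Figure D4:**
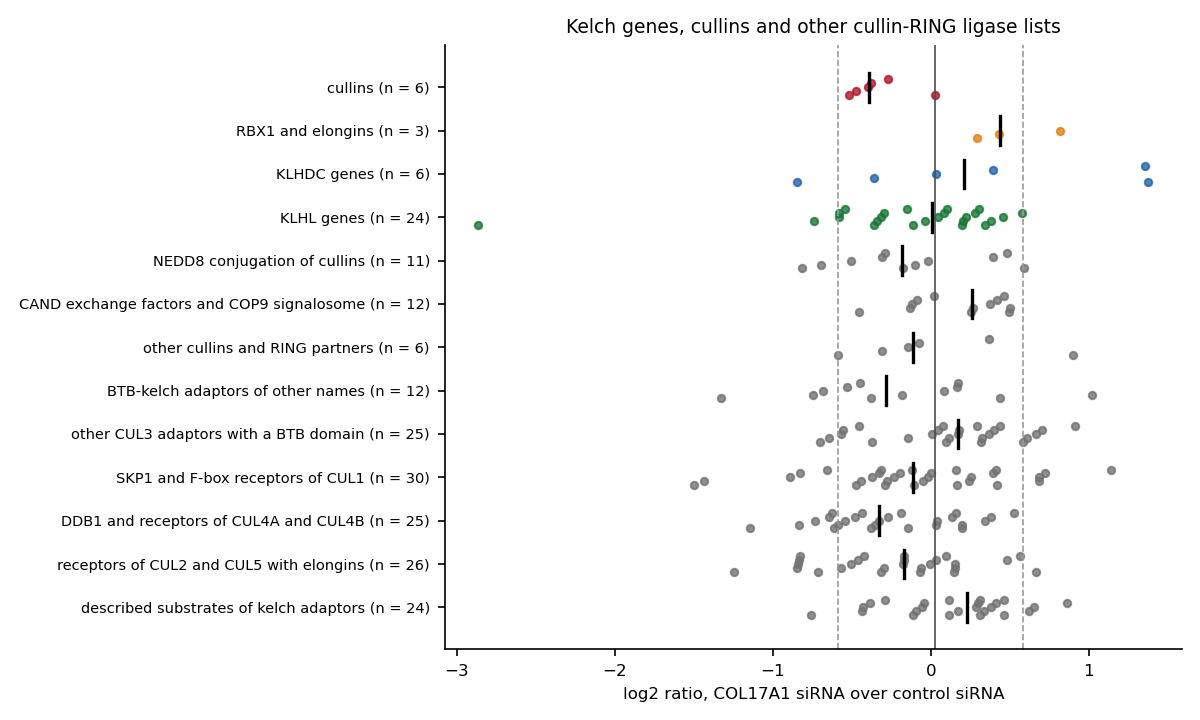
Log2 ratio of COL17A1 siRNA over control siRNA for each tested gene of the 4 classes and of 9 other lists, with black bars for the list medians, the solid line for the median of all tested genes and dashed lines for 1.5-fold. The cullin median lies at -0.39, that of RBX1 and the elongins at 0.44, and that of the CUL4 receptors at -0.33.

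Transcripts of described substrates were set beside their adaptors. These pairs were chosen after the values were seen, and RNA says nothing of protein turnover. KRT14, keratin 14, had 8824 counts with COL17A1 siRNA and 5031 with control siRNA, at 0.34, beside KLHL24 at 0.09. EIF4EBP1 had 2285 counts with COL17A1 siRNA and 903 with control siRNA and was 1.82-fold higher, at 0.87, beside KLHL25 at 0.31, and came to 0.23 after the adjustment. DVL2 had 1269 counts with COL17A1 siRNA and 580 with control siRNA, at 0.66, and SEC31A 2554 counts with COL17A1 siRNA and 2488 with control siRNA, at -0.44, beside KLHL12 at 0.10. AURKB, Aurora B, was at 0.47, ULK1 at 0.62, PML at 0.38, WNK1 at -0.39 and DEPDC5 at -0.11. Over 24 tested substrates 3 were higher, or 12.5%, close to the 12.2% of all tested genes, and 1, or 4.17%, was lower, TXNRD1, thioredoxin reductase, at -0.76. RPL18AP3 overlaps TXNRD1 on the same strand, so the count of TXNRD1 is uncertain. The median of the 24 substrates was 0.23, and none was called in either direction after the adjustment. By the deposited annotation 38 tested genes belonged to CUL3 ligase complexes, 16 of them from this family, with a median of 0.09, and 2.63% were higher and 5.26% lower, beside 12.2% and 11.7% of all tested genes. Of 17 in CUL2 complexes 3 were higher and 4 lower, with -0.26 as median, and of 24 in CUL4 complexes 1 was higher and 4 lower, with -0.08 as median. Of 6 in CUL5 complexes 1 was higher and none lower, with 0.32 as median, and of 57 in SCF complexes, built on CUL1, 6 were higher and 5 lower, with 0.11 as median. This family supplied 6 of the CUL2 genes, 2 of the CUL4 genes, 4 of the CUL5 genes and 6 of the SCF genes. The counts for these complexes therefore partly repeat genes already given above.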

How the data were processed

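RNA of 2 libraries was analysed, 1 per group, with groups taken from the treatment named in the labels. The table holds raw counts per gene, deposited by the authors, beside FPKM values per the file headers. These FPKM values were recomputed from count, exonic size and library total, and 100% agreed to 0.0051. The submitters' processing notes list the tools STAR, HISAT2 and edgeR, with hg38 and GRCh38 as builds, and give no roles. Which counter, strand setting and annotation release were used is not stated there. Exonic size in the table covers every annotated exon of a gene, so FPKM is low where transcripts are much shorter. Overlapping genes and copies have uncertain counts. Columns of samples outside the labels numbered 0.

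Trimmed-mean scaling (edgeR 4.0.16, R 4.3.3) gave factors of 1.014 for COL17A1 siRNA and 0.987 for control siRNA, and 0.5 was added to counts before log2 ratios. The filter, a mean of 1 CPM or more, left 13375 of 61806 genes. Intervals are exact Clopper-Pearson ones at 95%. They, and the 3 counts taken as the limit behind a 0, describe counting error alone, as reads carry no molecular identifiers. Differences between genes have normal intervals on the log scale. The adjustment regressed log2 ratios, limited to 3 in size, on length, GC content and abundance with squared terms. Sequence properties and exon overlaps came from GENCODE release 29 (99.1% of tested genes matched). The members, lists and words were chosen with earlier results of these data known. Named genes are COL17A1, the family, and in other lists all called genes when 4 or fewer. Above 4, the 2 higher and 2 lower genes whose interval bound lay farthest from equality are named. Where 1 side had fewer than 2, the other side filled the number to 4. Alternatives covered DESeq2 1.42.0 size factors, scaling by totals, an offset of 2, a mean of 5 CPM, no filter, 2-fold, FPKM plus 0.1, protein-coding genes, a coefficient of variation of 0.2, removal of genes holding either word, and, chosen after seeing the data, transcript length in the adjustment and in the order of levels. The scaling, the log2 ratios, their exact intervals and the 1.5-fold rule were first tested on simulated counts, and the other steps were not. Software was Python 3.11.15 with numpy 2.4.6, pandas 2.3.3, scipy 1.17.1 and, for figures, matplotlib 3.10.9.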

Additional observations from a re-analysis of the deposited data

How the results depend on the processing

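No paired analysis was possible because each group is 1 library, and no library could be left out. COL17A1 was called lower under every alternative. The median of the family lay between 0.01 and 0.17 under the alternatives that give one, which the 2-fold rule and the coefficient of variation do not. Higher genes numbered between 2 and 4, and not always the same ones, since ELOB was lost by the 2-fold rule. The count of 2 lower genes was 4 with DESeq2 size factors, where KLHL23 and KLHL36, at -0.60 each, passed 1.5-fold. It was 3 with no filter, where KLHL4, at -2.06, was added. It was 1 under each of the adjustment for length, GC content and abundance, that adjustment with transcript length, the mean of at least 5 CPM, the 2-fold rule and a coefficient of variation of 0.2. KLHL11 has a mean below 5 CPM, and KLHL8 is the gene lost under the others. ELOB was at 0.32 with transcript length in the adjustment, under 1.5-fold, and KLHDC10, at 0.70, passed 1.5-fold there. CUL4B passed at 0.68 in the adjustment with exonic size. KLHL22 passed at 0.62 with total counts. The median of the NEDD8 list was -0.02 without genes that hold either word, where none was lower, and its 2 lower genes were 1 under both adjustments and 0 by the 2-fold rule and the coefficient of variation. Its 1 higher gene was lost with DESeq2 size factors, the 2-fold rule and the coefficient of variation. The F-box list was at 0.05 after the adjustment and 0.10 with transcript length. The CUL4 receptor list was at -0.12 after the adjustment and 0.04 without genes that hold either word. The words were found in these same data by their ratios, so leaving out their holders removes lower genes by construction and is no check on a list. Over all tested genes, 1636 higher and 1565 lower became 407 and 481 by the 2-fold rule, 532 and 723 with the coefficient of variation of 0.2, and the lower count 1042 with transcript length in the adjustment. Lower CUL4 receptors, 7 as reported, numbered between 1 and 4 with total counts, FPKM, both adjustments, the 2-fold rule, the coefficient of variation and without genes that hold either word. Lower receptors of CUL2 and CUL5, 6 as reported, numbered between 1 and 3 under both adjustments, the 2-fold rule and without those genes. Higher BTB adaptors, 4 as reported, were at most 1 under both adjustments, the 2-fold rule and the coefficient of variation, and higher F-box receptors, 3 as reported, were 5 under both adjustments, beside 3 and 4 lower ones in place of 5. The cause of these shifts was not tested. Depth limits the 17 genes under the filter and KLHDC1, KLHL3, KLHL4 and KLHL11, whose intervals are wide.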
